A study of Mus musculus with 12 samples.

Results

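The Hox genes and the Pax, Lhx, Nkx, Irx, Dlx and sine oculis (Six4 and related) genes, homeobox families that pattern the embryo, were examined in RNA-seq of mouse embryonic stem (ES) cells that express an inducible Xist. The members were chosen by name, as the symbols that begin with Hoxa, Hoxb, Hoxc, Hoxd, Pax, Lhx, Nkx, Irx or Dlx or with the sine oculis prefix (as in Six4), each followed by a digit, without those of antisense transcripts that contain "os", and by level, with at least 10 counts in at least 6 of the 12 libraries. Of 89 such symbols among the 24627 genes in the count files, 64 met the minimum, as did 15198 genes in all. The members were 26 of 39 Hox genes (4 of 11 in the Hoxa cluster, 9 of 10 in Hoxb, 6 of 9 in Hoxc and 7 of 9 in Hoxd), 5 of 9 Pax, 6 of 8 Lhx, 11 of 14 Nkx, 5 of 6 sine oculis, 6 of 6 Irx and 5 of 7 Dlx genes. Of the 64, 45 reached 10 counts in all 12 libraries and 19 in 6 to 11 of them, and none was at 0 in any library. The 25 symbols below the minimum all had counts in some library and were not tested.

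The study asks what parts of Xist, the non-coding RNA that silences 1 X chromosome, are needed for silencing and for the recruitment of Polycomb complexes. All libraries came from male (XY) J1 ES cells in which the endogenous Xist gene is driven by a doxycycline (DOX) inducible TetO promoter, kept without feeder cells and differentiated for 2 days by withdrawal of LIF in medium with serum. The 6 groups were XistTetOP_FL with the full-length RNA, XistTetOP_delA without the A repeat and XistTetOP_delBC without the B and C repeats, called FL, ΔA and ΔB+C cells below, each without DOX (noDOX) and with 1.5 μg/ml DOX over the 2 days, with 2 replicates in each group. ΔB+C cells were made from FL cells by genome editing and grown from a single clone, and each RNA is represented by 1 cell line, so that a difference between lines cannot be told apart from a difference between clones. The study calls the 2 replicates of a group biological duplicates, no source used here says what their numbers mark, and p-values measure the spread between these samples.

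Libraries held between 31337490 and 41240470 counts. Values are given in CPM, counts scaled to 1000000 in the normalised autosomal library, and a fold change is a log2 value ± its standard error from the fit over all genes. The Xist RNA followed the labels, at 2.44 to 8.38 in the 6 noDOX libraries and 557 to 1830.1 in the 6 DOX libraries, here scaled to 1000000 of all counts. The 9 ES cell markers summed to 2307 to 4061 CPM in every library. The names of the 3 noDOX replicate 1 files carry the word DOX against their labels, which were followed, and the Xist level in these libraries was that of the noDOX group. The Xist level does not identify the line. The library of ΔB+C cells with DOX, replicate 2, was prepared from 100 ng of RNA by a low-input method and the other 11 from 1 μg. In bulk RNA, a gene made by fewer cells and a gene with less RNA per cell cannot be told apart.

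The proteins of these families bind DNA through a homeodomain (in the Pax family, through a paired domain, with a whole, partial or no homeodomain). Hox genes lie in 4 clusters whose order along the chromosome matches the order in which they are used along the body axis, with paralogue group 1 toward the head and group 13 toward the tail. In ES cells, most of these genes are held at a low level by Polycomb repressive complexes 1 and 2, which place H2AK119ub and H3K27me3 over their CpG-rich promoters, and they are released as lineages form. No chromatin mark was measured in these libraries.

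The promoter windows of 4 members that the comparisons below turn on are shown for their content of CpG, the base pair step that Polycomb target promoters are rich in. Each is the 250 bases before the RefSeq start, read in the direction of the gene (build GRCm38.p6), with every CG step in capitals. Lhx2 and Nkx2-9 were higher in ΔA cells, Pax6 differed between replicate numbers and Hoxd13 is the Hoxd gene with the highest level.
Lhx2 (chr2:38339031-38339280, plus strand): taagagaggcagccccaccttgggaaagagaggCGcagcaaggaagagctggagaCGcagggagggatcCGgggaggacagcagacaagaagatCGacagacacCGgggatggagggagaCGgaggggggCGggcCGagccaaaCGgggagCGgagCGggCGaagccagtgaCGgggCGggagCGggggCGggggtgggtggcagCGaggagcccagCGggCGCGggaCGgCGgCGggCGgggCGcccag
Nkx2-9 (chr12:56613285-56613534, minus strand): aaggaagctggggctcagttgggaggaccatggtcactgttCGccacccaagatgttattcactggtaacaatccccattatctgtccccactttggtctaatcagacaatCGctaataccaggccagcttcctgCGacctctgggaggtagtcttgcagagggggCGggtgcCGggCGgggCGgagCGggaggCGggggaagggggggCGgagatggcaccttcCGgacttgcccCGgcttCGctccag
Pax6 (chr2:105668646-105668895, plus strand): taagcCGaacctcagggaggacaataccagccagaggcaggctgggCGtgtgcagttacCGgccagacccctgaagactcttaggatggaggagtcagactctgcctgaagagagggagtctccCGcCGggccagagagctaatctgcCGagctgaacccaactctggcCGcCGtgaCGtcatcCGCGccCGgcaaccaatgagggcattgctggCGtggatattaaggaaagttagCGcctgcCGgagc
Hoxd13 (chr2:74667975-74668224, plus strand): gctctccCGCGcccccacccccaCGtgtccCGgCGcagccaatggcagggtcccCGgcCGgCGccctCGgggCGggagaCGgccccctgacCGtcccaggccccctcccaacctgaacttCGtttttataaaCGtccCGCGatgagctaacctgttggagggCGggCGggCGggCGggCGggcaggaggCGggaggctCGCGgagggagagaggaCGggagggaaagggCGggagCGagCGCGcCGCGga

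The Hoxd13 window held 31 CG steps, a number reached by 5.19% of the 32851 windows in the RefSeq table, and the Lhx2 window held 25, reached by 10.7%. Pax6 held 15 and Nkx2-9 held 13, numbers reached by 27.3% and 31.5% of all windows, against a median of 6. The letters TATAAA were found, on either strand, in the Hoxd13 window alone of the 4 and in 12.4% of all windows, the letters CCAAT in Hoxd13 and Pax6 and in 33.8%, and the homeodomain core TAATTA in none of the 4 and in 4.84%. A match is a description of the letters and not a binding site. Windows were found for 40 of the 64 members, or 62.5%, so that no comparison of promoter sequence over the members was made.

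Nearly all of the members were transcribed at a low level. Their median was 0.439 CPM per kb of exon, against 5.40 CPM per kb over the 15003 tested genes with a known length, and only Irx3 and Nkx2-9 stood above that median. Of the 64, 34 had a mean of at least 1 CPM and 4 of at least 10 CPM, and the summed level of all members ran from 157 to 233 CPM of a library. Six4, Irx3 and Irx5 made up 40.0% of that sum. The highest member per length was Irx3 with 8.65 CPM per kb, followed by Nkx2-9 with 7.39, Nkx6-2 with 5.17, Irx5 with 3.77 and Six4 with 3.73.

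**Figure D1:**
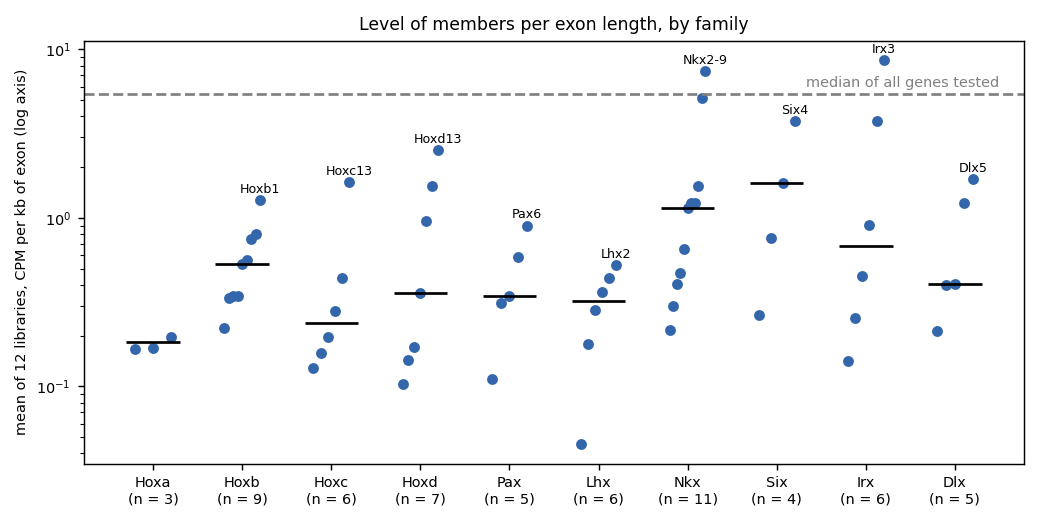
Mean level of 62 of the 64 members over the 12 libraries, in CPM per kb of exon on a log axis, by family. Each point is a member, black lines are medians over all members of the family and the dashed line is the median of all tested genes with a known length (5.40). Only Irx3 and Nkx2-9 lie above it, and a named member is the highest of its family.

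Levels by family differed in the same measure. The sine oculis genes, among which Six4 acts with Eya proteins in muscle precursors, had the highest family median, 1.61 CPM per kb, and the Nkx genes the next, with 1.15 CPM per kb. The Hoxa genes had the lowest, 0.182 CPM per kb. In the Hoxb, Hoxc and Hoxd clusters the highest member per length lay at an end of the paralogue order, Hoxb1 with 1.27 CPM per kb in group 1 and Hoxc13 with 1.62 and Hoxd13 with 2.53 in group 13. The second-highest members per length were Hoxa7, Hoxb2, Hoxc6 and Hoxd11, then Pax8, Lhx6, Nkx6-2, Irx5 and Dlx3 in other families.

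Of the highest members per length that are not shown in full below, Nkx6-2, a factor of ventral neural tube and oligodendrocyte development, had the most, and in FL cells it stood at 5.56 and 6.59 CPM without DOX and 7.26 and 5.24 CPM with DOX, in ΔA cells at 7.14 and 9.13 CPM without DOX and 8.20 and 11.9 CPM with DOX, and in ΔB+C cells at 4.57 and 6.14 CPM without DOX and 4.19 and 4.64 CPM with DOX. The 4 ΔB+C libraries lay between 4.19 and 6.14 CPM and the 4 ΔA libraries between 7.14 and 11.9 CPM. Hoxb1, which marks a single hindbrain segment, had lower values, and in FL cells it stood at 1.75 and 3.28 CPM without DOX and 2.81 and 3.53 CPM with DOX, in ΔA cells at 1.07 and 2.38 CPM without DOX and 2.27 and 1.98 CPM with DOX, and in ΔB+C cells at 1.98 and 2.75 CPM without DOX and 3.55 and 4.52 CPM with DOX. Replicate 2 was above replicate 1 in all pairs but that of ΔA cells with DOX. Lhx6, a factor of cortical interneurons, kept to a range of 1.13 to 2.16 CPM, and in FL cells it stood at 1.23 and 1.38 CPM without DOX and 2.03 and 2.06 CPM with DOX, in ΔA cells at 1.47 and 1.65 CPM without DOX and 1.13 and 1.53 CPM with DOX, and in ΔB+C cells at 1.17 and 2.05 CPM without DOX and 1.52 and 2.16 CPM with DOX. Its DOX libraries lay above its noDOX libraries in FL cells alone.

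The remaining members of that rank were near 1 CPM. Hoxb2, a hindbrain gene, ranged over 0.624 to 1.84 CPM, and in FL cells it stood at 0.626 and 1.41 CPM without DOX and 1.38 and 1.42 CPM with DOX, in ΔA cells at 0.624 and 1.84 CPM without DOX and 1.11 and 1.28 CPM with DOX, and in ΔB+C cells at 1.28 and 1.62 CPM without DOX and 1.18 and 1.84 CPM with DOX. Replicate 2 was the higher library in all 6 groups. Hoxd11, a limb and kidney gene, ranged over 1.03 to 2.60 CPM, and in FL cells it stood at 1.10 and 1.15 CPM without DOX and 1.82 and 1.10 CPM with DOX, in ΔA cells at 1.75 and 2.60 CPM without DOX and 1.60 and 2.52 CPM with DOX, and in ΔB+C cells at 1.96 and 2.38 CPM without DOX and 1.54 and 1.03 CPM with DOX. Its ΔA libraries lay above its FL libraries without DOX, and the groups overlapped with DOX. The lower pair, Hoxa7 and Hoxc6, are trunk genes. Hoxa7 ranged over 0.150 to 0.867 CPM, and in FL cells it stood at 0.375 and 0.546 CPM without DOX and 0.867 and 0.374 CPM with DOX, in ΔA cells at 0.150 and 0.412 CPM without DOX and 0.438 and 0.479 CPM with DOX, and in ΔB+C cells at 0.598 and 0.580 CPM without DOX and 0.540 and 0.484 CPM with DOX. Replicate 1 of ΔA noDOX was the lowest and replicate 1 of FL DOX the highest. For Hoxc6 the range was 0.419 to 1.19 CPM, and in FL cells it stood at 0.450 and 0.546 CPM without DOX and 0.747 and 0.535 CPM with DOX, in ΔA cells at 0.948 and 0.602 CPM without DOX and 1.19 and 0.735 CPM with DOX, and in ΔB+C cells at 0.598 and 0.611 CPM without DOX and 1.00 and 0.419 CPM with DOX. Members varied more among libraries than genes in general did, with a median of 3.60-fold between the highest and the lowest library, or 3.27-fold for the 34 members with a mean of at least 1 CPM, against 1.82-fold over all genes tested. Their level was lower too, with a median of 1.09 CPM against 18.2 CPM, and counting error widens this fold at low counts. No comparison with genes of like level was made.

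Some members overlap another gene. The exons of 19 members overlapped those of another GENCODE gene, for 15 of them a gene on the other strand, among them Six3 with Six3os1, Irx3 with Irx3os, and Hoxa3 and Hoxa7 with Hoxaas3. The counting options given by the study name no strand, so that the counts do not tell the strands of these pairs apart. The Hox members lie on chromosomes 6 (Hoxa), 11 (Hoxb), 15 (Hoxc) and 2 (Hoxd) of mm10. Of the members the comparisons turn on, Irx3 lies at chr8:91798525-91802067 (strand -), Six4 at chr12:73099609-73113456 (strand -), Dlx5 at chr6:6877805-6882085 (strand -) and Nkx6-3 at chr8:23153269-23158948 (strand +), and no member lies on the X chromosome.

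The comparison of DOX with noDOX in each line addresses whether induction of Xist, which acts on the X chromosome, was accompanied by a shift of these autosomal genes. By the study's RNA FISH counts, only part of the cells given DOX had an Xist-coated X chromosome, in shares that differed between samples and lines. The fold changes here were not adjusted for these shares. No member passed the threshold in any line (adjusted p under 0.05, edgeR quasi-likelihood test over 15198 genes). Of all genes, 1.08% were called in FL cells, 0.00658% (Xist alone) in ΔA cells and 2.48% in ΔB+C cells. At an unadjusted p under 0.05 stood 7, 0 and 9 of the 64 members, and DESeq2 called 0, 0 and 2, Nkx2-9 being among the 2 in ΔB+C cells. The medians of the log2 fold change over the members were 0.23 in FL cells, 0.10 in ΔA cells and -0.05 in ΔB+C cells, and lay between -0.01 and 0.00 over all genes.

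With the replicate number as a block, 6 members were called higher with DOX in FL cells, 0 in ΔA cells, and 4 higher and 4 lower in ΔB+C cells, beside 11.9%, 0.0197% and 19.6% of all genes called in either direction, 4.67% higher in FL cells, and 8.58% higher and 11% lower in ΔB+C cells. In either direction, the members' shares, 6 of 64 and 8 of 64, were below those of all genes in both lines. All 6 in FL cells were higher, a larger share than the 4.67% of all genes called higher there. They include Nkx6-3, which met the minimum for testing partly through the DOX libraries of FL cells. In ΔB+C cells the share was below that of all genes in each direction. The members also had a lower level than most genes, and these shares were not compared with those of genes of like level. Without the low-input library, the block called 5 members in FL cells and 1 in ΔB+C cells. For Nkx6-3 in FL cells and for the 7 members of ΔB+C cells described below, the call was lost without it.

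Irx3 and Irx5, neighbours on chromosome 8 that act in heart, limb and neural tube, were the 2 Irx genes called in FL cells with the block. Irx3 stood at 15.7 and 17.4 CPM without DOX and 33.1 and 32.0 CPM with DOX in FL cells, and the groups did not overlap. In ΔB+C cells it stood at 13.8 and 23.6 CPM without DOX and 21.3 and 40.5 CPM with DOX, where noDOX replicate 2 was above DOX replicate 1, and in ΔA cells at 17.8 and 24.7 CPM without DOX and 20.3 and 26.4 CPM with DOX. The log2 fold change was 0.98 ± 0.33 in FL cells (adjusted p = 0.246, and 0.0200 with the block) and 0.72 ± 0.33 in ΔB+C cells (0.289 and 0.0466). Irx5 moved with it in FL cells, from 6.11 and 7.25 CPM to 13.0 and 14.3 CPM, a log2 fold change of 1.04 ± 0.24 with the block (adjusted p = 0.0239). In ΔB+C cells, Irx5 stood at 6.42 and 14.6 CPM without DOX and 10.4 and 22.6 CPM with DOX, and in ΔA cells at 8.33 and 13.8 CPM without DOX and 9.59 and 15.0 CPM with DOX. In both of these lines each replicate 2 library lay above each replicate 1 library, whatever the treatment.

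Pax6, a gene of eye and forebrain, and Hoxc13, a gene of hair and nail, rose in FL cells with the block. Pax6 stood at 3.10 and 4.95 CPM without DOX and 7.20 and 9.73 CPM with DOX in FL cells, at 4.87 and 6.53 CPM without DOX and 6.42 and 6.71 CPM with DOX in ΔA cells and at 3.92 and 6.17 CPM without DOX and 4.96 and 9.74 CPM with DOX in ΔB+C cells, where DOX replicate 1 was below noDOX replicate 2. Its log2 fold change with the block was 1.09 ± 0.19 in FL cells (adjusted p = 0.00355). Hoxc13 stood at 1.73 and 1.44 CPM without DOX and 2.57 and 3.47 CPM with DOX in FL cells, and at 3.34 and 3.79 CPM without DOX and 5.96 and 4.90 CPM with DOX in ΔB+C cells. Its log2 fold change in FL cells was 0.93 ± 0.28 (adjusted p = 0.191, and 0.0292 with the block), and in ΔB+C cells the adjusted p was 0.266 without and 0.0805 with the block. Nkx6-3, a gene of stomach and hindbrain, was called with the block on 3 and 2 counts without DOX and 16 and 19 counts with DOX, a ratio of 7.38 with a 95% exact binomial interval from 2.88 to 24.1 that covers counting error only. It met the minimum for testing only through these DOX libraries and the ΔA libraries, so that the group called higher was one that admitted it.

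In ΔB+C cells, Nkx2-9 and Six4 rose and Dlx5, Six3, Hoxd1 and Hoxd13 fell with the block. Nkx2-9, a gene of the ventral neural tube, stood at 6.39 and 5.07 CPM without DOX and 10.0 and 13.9 CPM with DOX in this line and at 4.78 and 4.69 CPM without DOX and 8.67 and 8.79 CPM with DOX in FL cells. The log2 fold change was 1.06 ± 0.35 in ΔB+C cells (adjusted p = 0.153, and 0.0475 with the block) and 0.88 ± 0.35 in FL cells (0.331 and 0.105). Six4, the member with the most counts, moved less, from 30.5 and 35.0 CPM to 40.1 and 45.8 CPM, a log2 fold change of 0.39 ± 0.09 with the block (adjusted p = 0.0102). In FL cells, Six4 stood at 35.8 and 37.2 CPM without DOX and 40.9 and 43.0 CPM with DOX, and in ΔA cells at 38.2 and 49.2 CPM without DOX and 40.6 and 50.1 CPM with DOX.

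The 4 that fell included both ends of the Hoxd cluster. Hoxd13, a gene of digits and genitalia, stood at 6.06 and 8.52 CPM without DOX and 3.93 and 4.64 CPM with DOX in ΔB+C cells, at 4.43 and 5.98 CPM without DOX and 3.86 and 4.76 CPM with DOX in FL cells and at 7.01 and 8.53 CPM without DOX and 10.3 and 7.28 CPM with DOX in ΔA cells. Hoxd1, the first gene of the cluster, stood at 2.77 and 2.29 CPM without DOX and 1.54 and 0.968 CPM with DOX in ΔB+C cells, 1.95 and 2.27 CPM without DOX and 1.38 and 1.12 CPM with DOX in FL cells and 1.60 and 1.65 CPM without DOX and 2.68 and 1.25 CPM with DOX in ΔA cells. For both genes the DOX libraries of ΔB+C cells lay below its noDOX libraries without overlap. With the block, the log2 fold change in ΔB+C cells was -0.76 ± 0.21 for Hoxd13 (adjusted p = 0.0268) and -1.01 ± 0.30 for Hoxd1 (0.0336). Six3, a forebrain and eye gene, fell from 1.22 and 1.83 CPM to 0.591 and 0.839 CPM, by 1.09 ± 0.32 on the log2 scale (adjusted p = 0.0328, and 0.132 without the block), and Six3os1, which overlaps it, stood at 0.435 and 0.763 CPM without DOX and at 0.231 and 0.0968 CPM with DOX. Dlx5, a bone and jaw gene, stood at 2.94 and 3.02 CPM without DOX and 1.70 and 1.71 CPM with DOX in ΔB+C cells and at 1.40 and 1.64 CPM without DOX and 1.08 and 0.695 CPM with DOX in FL cells, with log2 fold changes of -0.80 ± 0.25 (adjusted p = 0.0383 with the block) and -0.78 ± 0.28 (0.0927).

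**Figure D2:**
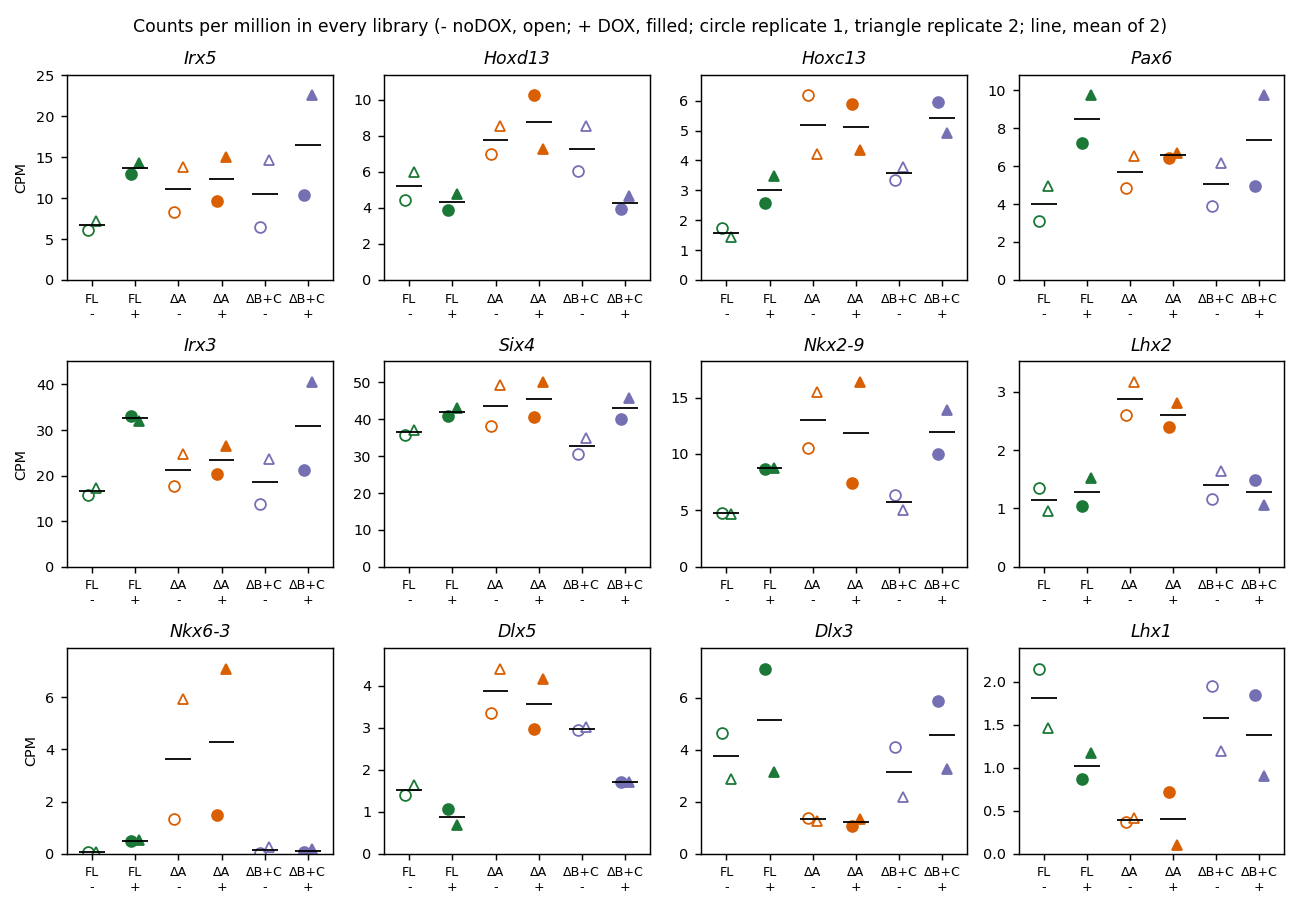
Level of 12 members in each library, in CPM on linear axes that start at 0, by line and treatment. Open symbols are noDOX, filled symbols DOX, circles replicate 1 and triangles replicate 2, and lines are means of 2 libraries. Irx3, Irx5 and Pax6 are higher with DOX in both FL libraries, Lhx2 and Nkx6-3 are higher and Dlx3 and Lhx1 lower in all 4 ΔA libraries.

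In ΔA cells, the members with the smallest p and a mean of at least 1 CPM were Nkx6-2, Hoxb9 and Hoxd1, with log2 fold changes of 0.31 ± 0.25, -0.28 ± 0.33 and 0.28 ± 0.37, each with an adjusted p of 1.00. Counted by libraries, both DOX libraries lay above both noDOX libraries for 16, 9 and 8 members and below for 7, 2 and 17 in FL cells, ΔA cells and ΔB+C cells. Over all genes the shares were 21.8%, 11.5% and 19.8% above and 25.1%, 12.5% and 23% below. The shares of members, in the same order of lines, were 25%, 14.1% and 12.5% above and 10.9%, 3.13% and 26.6% below. A difference between lines needs its own test, which follows.

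No member passed the test of a difference between lines in the response to DOX. Neither fit called any of the 64 for ΔA cells minus FL cells, ΔB+C cells minus FL cells or ΔB+C cells minus ΔA cells, where 0%, 0% and 0.164% of all genes were called and, with the block, 2.87%, 0% and 8.1%. An unadjusted p under 0.05 was found for 1, 0 and 5 members, and DESeq2 called 0 in each. Among the smallest adjusted p with the block were 0.113 for Pax6 in ΔA cells minus FL cells, and 0.0647 for Hoxd13 and 0.0701 for Six3 in ΔB+C cells minus ΔA cells. The differences of the log2 fold changes were -0.86 ± 0.27 for Pax6, -0.96 ± 0.29 for Hoxd13 and -1.36 ± 0.43 for Six3. Among members with a mean of at least 1 CPM, Hoxc13, Nkx2-9 and Hoxd1 had the smallest p in ΔA cells minus FL cells without the block, with -0.95 ± 0.38, -1.01 ± 0.49 and 1.04 ± 0.52, and Hoxd11, Nkx6-3 and Hoxd13 in ΔB+C cells minus FL cells, with -1.11 ± 0.52, -3.15 ± 2.05 and -0.49 ± 0.37. The lowest of these adjusted p was 0.662. The members' median of the difference was -0.13, -0.27 and -0.13 for the 3 comparisons.

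As a description over genes, which are not replicates, the DOX fold changes of the 64 members in FL cells and ΔB+C cells, from separate libraries that share their replicate numbers, had a Pearson r of 0.61 and a Spearman rho of 0.71, and 47 of 64 had the same sign. Over all genes tested r was 0.74, and 78.2% had the same sign. Between FL cells and ΔA cells, r was 0.11 over the members and 0.12 over all genes.

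**Figure D3:**
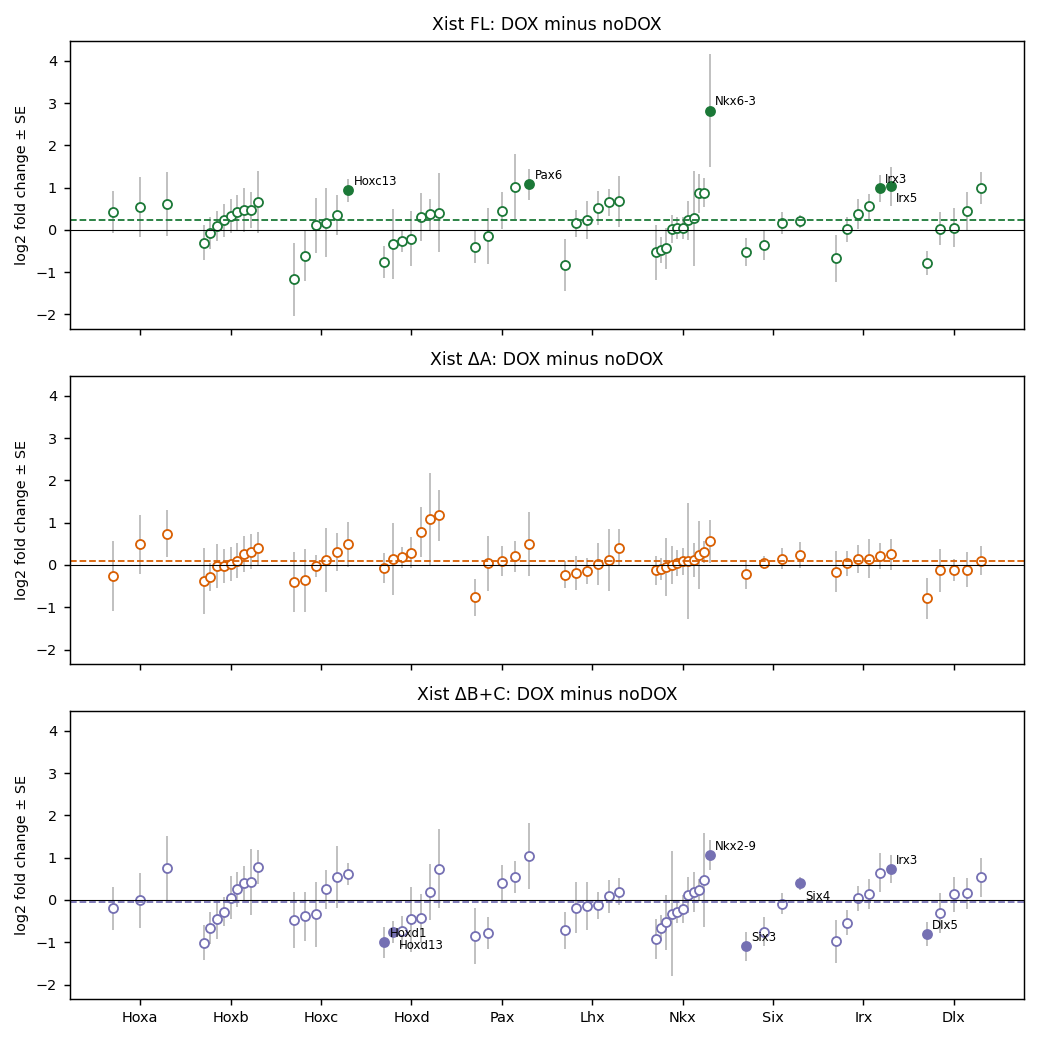
Log2 fold change of DOX over noDOX for 62 of the 64 members, by family, in FL cells, ΔA cells and ΔB+C cells. Points are fitted values without the block and bars their standard errors. Named filled points had an adjusted p under 0.05 with the replicate block, 5 in FL cells, 0 in ΔA cells and 7 in ΔB+C cells. Dashed lines are the medians over all members, 0.23, 0.10 and -0.05.

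Some markers of other cell states were called with DOX in the same libraries. Of all genes, 1.08% were called in FL cells and 2.48% in ΔB+C cells, and 11.9% and 19.6% with the block. The mesendoderm markers (7 of 9 tested) summed to 353 and 246 CPM without DOX and 204 and 63.6 CPM with DOX in FL cells, to 288 and 158 CPM without and 199 and 71.2 CPM with DOX in ΔB+C cells, and to 85.4 and 59.1 CPM without and 100.3 and 61.2 CPM with DOX in ΔA cells. Of the 7, Eomes was called lower with DOX in FL cells and in ΔB+C cells, and 3 were with the block in each. Of the 6 formative epiblast markers tested, Fgf5 and Lef1 were called lower with DOX in ΔB+C cells, and 3 were with the block. In FL cells, 1 of the 6 was called higher and 1 lower with the block. The 7 primitive endoderm markers summed to 188 and 118 CPM without and 329 and 181 CPM with DOX in ΔB+C cells. There, noDOX replicate 1 was above DOX replicate 2. In FL cells the sums were 108 and 91.4 CPM without and 116 and 149 CPM with DOX. In ΔA cells they were 88.3 and 80.9 CPM without and 73.3 and 61.1 CPM with DOX. None of the 7 was called with DOX in any line, and 1 was called higher in ΔB+C cells with the block. No ES cell, neural or fibroblast marker was called with DOX without the block. With it, 2 of 9 ES cell markers were higher in FL cells and 1 in ΔB+C cells. Of 6 neural markers, 1 was higher and 1 lower in FL cells, and 1 higher and 2 lower in ΔB+C cells. Of 8 fibroblast markers, 1 was higher in ΔB+C cells. No marker of these lists was at 0 in every library. Their part in the members' shifts was not tested.

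The lines without DOX were compared to see whether the members already differed before induction. In all, 6 of the 64 members were called between ΔA cells and FL cells, each higher in ΔA cells, where 8.61% of all genes were called and 3.74% were called higher. They were Hoxb9, Hoxc13, Lhx2, Nkx2-9, Nkx6-3 and Dlx5. With the block, 15 were called, 11 higher and 4 lower, beside 30.5% of all genes (14.6% higher and 15.9% lower), and the 6 were among them. Pooled over both treatments, 16 were called, beside 23.8% of all genes, again with the 6 among them. The count rested on every library of the comparison, since 1 member was called without FL noDOX replicate 1, 0 without FL noDOX replicate 2, 2 without ΔA noDOX replicate 1 and 1 without ΔA noDOX replicate 2, and 4 to 8 without any 1 of the other libraries. The members' median was 0.26, with the median over all genes near 0.

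Nkx6-3 had the largest difference. It had 3 and 2 counts in the noDOX libraries of FL cells, 54 and 187 in those of ΔA cells and 1 and 9 in those of ΔB+C cells. These were 0.0751 and 0.0575 CPM in FL cells, 1.35 and 5.93 CPM in ΔA cells and 0.0272 and 0.275 CPM in ΔB+C cells. With DOX it stood at 0.478 and 0.508 CPM in FL cells, 1.47 and 7.09 CPM in ΔA cells and 0.0771 and 0.161 CPM in ΔB+C cells. All 4 ΔA libraries lay above the other 8, and replicate 2 was the higher in both treatments. It reached 10 counts in 6 libraries, these 4 and the 2 of FL cells with DOX, and so met the minimum for testing only through libraries in which it was high. The ratio of ΔA cells to FL cells without DOX was 50.3, with a 95% exact binomial interval of counting error from 21.3 to 156, and the fit gave an adjusted p of 0.0219. Under limma-voom the adjusted p was 0.0692.

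Hoxc13 stood at 1.73 and 1.44 CPM in FL cells, 6.19 and 4.22 CPM in ΔA cells and 3.34 and 3.79 CPM in ΔB+C cells without DOX, with both other lines above FL cells. Its log2 fold change in ΔA cells was 1.72 ± 0.28 (adjusted p = 0.00729). With DOX, ΔA cells stood at 5.90 and 4.34 CPM, within the range of the other lines. Hoxb9, a gene of the thoracic level, stood at 1.40 and 0.978 CPM in FL cells, 2.62 and 3.30 CPM in ΔA cells and 2.53 and 1.47 CPM in ΔB+C cells without DOX, and at 1.35 and 1.20, 2.16 and 2.72 and 2.01 and 1.29 CPM with DOX. Its log2 fold change in ΔA cells was 1.31 ± 0.35 (adjusted p = 0.0481). These were the only 2 Hox genes called of 26.

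Lhx2, a LIM homeobox gene of eye, forebrain and hair follicle whose CpG-rich window is shown above, separated ΔA cells from the rest. It stood at 2.60 and 3.17 CPM without and 2.40 and 2.81 CPM with DOX in ΔA cells, while the other 8 libraries ranged from 0.949 to 1.65 CPM. The log2 fold change was 1.32 ± 0.31 (adjusted p = 0.0338). Dlx5 stood at 1.40 and 1.64 CPM in FL cells, 3.34 and 4.41 CPM in ΔA cells and 2.94 and 3.02 CPM in ΔB+C cells, and all 4 FL libraries lay below the other 8, an order found for this member alone and for 0.967% of all genes. Its log2 fold change in ΔA cells was 1.35 ± 0.27 (adjusted p = 0.0190). Nkx2-9 stood at 4.78 and 4.69 CPM in FL cells, 10.5 and 15.5 CPM in ΔA cells and 6.39 and 5.07 CPM in ΔB+C cells without DOX, a log2 fold change of 1.46 ± 0.35 in ΔA cells (adjusted p = 0.0360). With DOX its ΔA libraries spread to 7.40 and 16.4 CPM and overlapped the other lines.

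With the block, the Dlx family divided. Dlx2, Dlx5 and Dlx6 were higher in ΔA cells, and Dlx3, from another Dlx pair, was lower. Dlx6, which adjoins Dlx5, stood at 1.22 and 1.81 CPM without and 1.13 and 1.66 CPM with DOX in ΔA cells and at 0.386 to 0.824 CPM in the other 8 libraries, a log2 fold change of 1.41 ± 0.29 (adjusted p = 0.00282, and 0.0821 without the block). Dlx3, a gene of placenta and epidermis, stood at 1.37 and 1.27 CPM without and 1.08 and 1.34 CPM with DOX in ΔA cells and at 2.20 to 7.11 CPM in the other 8, a log2 fold change of -1.50 ± 0.30 (adjusted p = 0.00284, and 0.0868 without the block). Dlx4, the neighbour of Dlx3, was in the same order at 0.129 to 0.412 CPM in ΔA cells and 0.463 to 0.777 CPM elsewhere, with no call at either fit (adjusted p = 0.178 and 0.0901).

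Lhx1 was also lower in ΔA cells with the block. Lhx1, a gene of node, head mesoderm and kidney, stood at 2.15 and 1.47 CPM in FL cells, 0.374 and 0.412 CPM in ΔA cells and 1.96 and 1.19 CPM in ΔB+C cells without DOX, with a log2 fold change of -2.21 ± 0.50 (adjusted p = 0.00606, and 0.0760 without the block). All 4 ΔA libraries of Lhx1 lay below the other 8. Further members called with the block were Lhx9, Nkx2-3 and Six5, higher in ΔA cells, and Nkx6-1, lower. Lhx9 reached the minimum count in 7 libraries, among them all 4 of ΔA cells, with 17, 19, 19 and 17 counts. Without the ΔA libraries Lhx9 would not have met the minimum for testing, so that the group called higher was one that admitted it. Nkx6-1 depended on 1 library. Its log2 fold change without the block was -1.40 ± 1.26 (adjusted p = 0.534) and became 0.082 without FL noDOX replicate 1. Counted by libraries, 4 members (Dlx6, Lhx2, Nkx2-3 and Nkx6-3) had all 4 ΔA libraries above the other 8, beside 8.37% of all genes, and 4 (Dlx3, Dlx4 and Lhx1 among them) had them below, beside 8.32%.

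No member was called between ΔB+C cells and FL cells without DOX, where 0.0197% of all genes were called, and none with the block, where 0.895% were. An unadjusted p under 0.05 was found for 5 members, and DESeq2 called 0. Hoxc13, Dlx5 and Six5 had the smallest p, with log2 fold changes of 1.17 ± 0.28, 0.97 ± 0.27 and 0.74 ± 0.25 and adjusted p of 0.0507, 0.0836 and 0.120 with the block. These 3 were called when both treatments were pooled with the block. Six5, a gene next to Dmpk that acts in eye and muscle, stood at 3.10 and 3.16 CPM without DOX and 3.56 and 3.45 CPM with DOX in FL cells, 5.79 and 5.90 CPM without DOX and 6.52 and 6.39 CPM with DOX in ΔA cells and 4.79 and 5.68 CPM without DOX and 3.52 and 6.32 CPM with DOX in ΔB+C cells. The members' median was 0.30, and 76.6% of them had a positive fold change, against 49.1% of all genes.

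Between ΔB+C cells and ΔA cells without DOX, 1 member, Nkx6-3, was called, lower in ΔB+C cells with an adjusted p of 0.0429, beside 5.82% of all genes, 2.49% lower. It was under 10 counts in all 4 ΔB+C libraries and met the minimum for testing through the ΔA cells and FL DOX libraries. That call was lost under limma-voom (adjusted p = 0.114) and without any filter on low counts, as it was on leaving out any 1 library other than the 2 of ΔA cells with DOX, which left 2 calls each, or ΔA noDOX replicate 1, which left 1. DESeq2 called 2. With the block, 11 were called, beside 25.5% of all genes (13.9% higher and 11.5% lower), among them Dlx3, Lhx1, Nkx1-2 and Nkx6-1 higher and Dlx6, Lhx2, Nkx2-9, Nkx6-2, Nkx6-3 and Six4 lower in ΔB+C cells. This comparison shares its ΔA libraries with the one above, and the values of Lhx1, Dlx3, Lhx2 and Dlx6 are those already given.

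Genes that act upstream of Hox clusters differed between the same lines. Of all genes, 8.61% were called between ΔA cells and FL cells without DOX, and 30.5% with the block. For ΔB+C cells minus ΔA cells the shares were 5.82% and 25.5%. In the list of 17 genes of retinoic acid handling and Cdx factors, 4 were called lower in ΔA cells than in FL cells without DOX and 0 higher, and the list's median was -0.19. With the block, 4 were lower and 2, Rarg and Rxrb, higher. Between ΔB+C cells and ΔA cells, Cdx1 and Crabp1 were called higher in ΔB+C cells, and 4 genes were higher and 2 lower with the block. Cyp26a1, the enzyme that breaks down retinoic acid, stood at 9.88 and 4.66 CPM in FL cells, 0.699 and 1.33 CPM in ΔA cells and 6.74 and 4.15 CPM in ΔB+C cells, with a log2 fold change in ΔA cells of -2.86 ± 0.73 (adjusted p = 0.0426). Cdx1, a caudal factor that binds Hox genes, stood at 4.28 and 3.39 CPM in FL cells, 0.299 and 0.856 CPM in ΔA cells and 3.94 and 2.47 CPM in ΔB+C cells, with -2.76 ± 0.54 (adjusted p = 0.0164). Crabp1, a carrier of retinoic acid, was lower by 0.90 ± 0.14 on the log2 scale. Of the 9 TALE cofactors, which bind DNA together with Hox proteins, 1 was called higher in ΔA cells and 0 lower. With the block, 2 TALE genes were called higher and 3 lower. Among 6 tested antisense and non-coding neighbours of the members, Mir196a-1 was called higher and Dlx4os, which overlaps Dlx4, lower in ΔA cells, and 2 were higher and 1 lower with the block.

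Among 33 Polycomb subunit genes, 2 (Bmi1 and Kdm2b) were called higher and 3 (Pcgf5, Scml2 and Suz12) lower in ΔA cells than in FL cells without DOX, with a median of 0.04, and 8 in each direction with the block. Of all genes, 8.61% were called in this comparison and 30.5% with the block. Kdm2b, whose protein carries variant complex 1 to unmethylated CpG, stood at 175 and 188 CPM in FL cells, 238 and 243 CPM in ΔA cells and 317 and 332 CPM in ΔB+C cells, and was the 1 subunit called between ΔB+C cells and FL cells, by 0.84 ± 0.09 on the log2 scale (adjusted p = 0.0443). With DOX, Rbbp7, a histone-binding subunit encoded on the X chromosome, was lower in FL cells, at 427 and 416 CPM without DOX and 187 and 149 CPM with DOX, by 1.32 ± 0.15 on the log2 scale (adjusted p = 0.00751). In ΔB+C cells it fell from 386 and 367 CPM to 179 and 131 CPM (adjusted p = 0.00521), and in ΔA cells it stood at 342 and 324 CPM without DOX and 375 and 342 CPM with DOX. Beside it, 1 other subunit, Cbx6, was called in ΔB+C cells, lower by 0.51 ± 0.10 on the log2 scale. With the block, 6 subunits were called higher and 4 lower with DOX in FL cells, and 8 and 5 in ΔB+C cells. Of all genes, 1.08% and 2.48% were called with DOX in FL cells and ΔB+C cells, and 11.9% and 19.6% with the block. Of 37 tested developmental transcription factors of other families, 1 was higher and 1 lower in ΔA cells, 0 were called with DOX in FL cells, and 2 were higher and 2 lower with DOX in ΔB+C cells. With the block, 8 were higher and 6 lower in ΔA cells, 2 higher and 3 lower with DOX in FL cells, and 2 higher and 5 lower with DOX in ΔB+C cells.

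The cell state markers differed between lines as well, beside 8.61% of all genes called between ΔA cells and FL cells and 30.5% with the block. The mesendoderm sums given above were lower in all 4 ΔA libraries than in the noDOX libraries of the other lines, and 4 of 7 (Fgf8, Mixl1, Gsc and Eomes) were called lower in ΔA cells than in FL cells without DOX. With the block, 6 of the 7 were. Of the 6 formative epiblast markers, Lef1 and Sall2 were called higher, and 4 with the block. Of 6 tested neural markers, Sox3 was called higher, and with the block Nes was also called, lower. No fibroblast or primitive endoderm marker was called between ΔA cells and FL cells without the block. With it, the fibroblast markers Thy1 and Dcn were lower in ΔA cells, and of the primitive endoderm markers Gata4 was higher and Col4a1 lower. The 9 ES cell markers summed to 2307 and 2826 CPM in FL cells, 2809.9 and 3818 CPM in ΔA cells and 2319.8 and 3112 CPM in ΔB+C cells without DOX, with 0 called. With the block, 3 (Sox2, Dppa5a and Pou5f1) were higher and Nanog lower in ΔA cells than in FL cells, and Sox2 and Dppa5a were lower in ΔB+C cells than in ΔA cells. Their part in the line differences of the members was not tested.

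Replicate number was compared over 6 pairs of libraries, against 2 libraries a group in the comparisons above. Over these pairs, 21 of 64 members (32.8%) differed between replicate 2 and replicate 1, 12 higher and 9 lower in replicate 2, beside 42.8% of all genes, 21% higher and 21.8% lower. The members' share lay below that of all genes. Their level was lower too, with a median of 1.09 CPM against 18.2 CPM, and the share was not compared with that of genes of like level. Leaving out any 1 library gave 15 to 22 members. Within the 6 noDOX libraries alone 14 were called, and within the 6 DOX libraries alone 10. What the number marks (a day, a culture or a preparation) is not stated.

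Nkx6-1, a gene of pancreatic beta cells and motor neuron precursors, had the largest shift. It ran from 0.374 CPM over a median of 1.21 to 1.75 CPM in the 6 libraries of replicate 1 and from 0.0958 over 0.209 to 0.484 CPM in the 6 of replicate 2, and was lower in replicate 2 in 6 of 6 pairs, by 2.15 ± 0.27 on the log2 scale (adjusted p = 0.000116). In FL cells it stood at 1.18 and 0.259 CPM without DOX and 1.64 and 0.134 CPM with DOX. Nkx6-1 reached the minimum count in 8 libraries, among them all 6 of replicate 1. On replicate 2 alone it would not have met the minimum for testing, so that the group with the higher level admitted it. Nkx6-3 moved the other way, by 1.78 ± 0.32 (adjusted p = 0.00105), higher in 5 of 6 pairs, with the 4 ΔA libraries given above carrying most of its counts. Another pair of Nkx genes, Nkx1-2 and Nkx2-2, were lower, by 0.91 ± 0.26 and 0.56 ± 0.20 on the log2 scale. Nkx1-2, which marks the caudal epiblast where trunk precursors lie, ran from 2.02 CPM over a median of 6.25 to 7.38 CPM in the 6 libraries of replicate 1 and from 1.47 over 2.19 to 5.22 CPM in the 6 of replicate 2.

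Of the 26 Hox members, 7 (26.9%) were called, beside 42.8% of all genes. Of these 7, the 3 from the Hoxb cluster, Hoxb1, Hoxb2 and Hoxb4, were higher in replicate 2, and the other 4, Hoxa3, Hoxa10, Hoxc8 and Hoxd9, were lower. These 4 reached 10 counts in 9 to 11 libraries, and none would have met the minimum for testing on the libraries of replicate 2 alone. Hoxb4, from a group used in hindbrain and blood stem cells, ran from 0.400 CPM over a median of 0.494 to 0.823 CPM in the 6 libraries of replicate 1 and from 0.831 over 1.05 to 2.19 CPM in the 6 of replicate 2, higher in 6 of 6 pairs with a log2 fold change of 1.16 ± 0.24 (adjusted p = 0.00237). Hoxc8, a thoracic gene, ran from 0.329 CPM over a median of 0.757 to 1.05 CPM in the 6 libraries of replicate 1 and from 0.107 over 0.291 to 0.507 CPM in the 6 of replicate 2, lower in 6 of 6 pairs with -1.29 ± 0.22 (adjusted p = 0.000765). For Hoxd9, which ran from 0.175 CPM over a median of 1.20 to 2.03 CPM in the 6 libraries of replicate 1 and from 0.275 over 0.363 to 0.481 CPM in the 6 of replicate 2, the log2 fold change was -1.53 ± 0.31 (adjusted p = 0.00232), and 1 pair, ΔA cells without DOX, went the other way. All 6 Hoxc members had a negative fold change, with a median of -0.61, and the medians were -0.64 over the 4 Hoxa, 0.00 over the 9 Hoxb and -0.21 over the 7 Hoxd members. Hoxc4, Hoxc8, Hoxc9 and Hoxc10 reached 10 counts in 7 to 10 libraries, among them all 6 of replicate 1. They would not have met the minimum on replicate 2 alone, as is also true of Hoxa3, Hoxa10 and Hoxd9. The sign and the negative medians thus rest in part on members admitted through replicate 1, where they were higher. Over the 26 Hox members the median was -0.21, and over the 38 others 0.18.

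Outside the Hox clusters, the Pax, sine oculis and Irx genes that passed were mostly higher in replicate 2. Pax8, a thyroid and kidney gene, ran from 0.435 CPM over a median of 0.850 to 1.49 CPM in the 6 libraries of replicate 1 and from 1.15 over 2.1 to 2.97 CPM in the 6 of replicate 2, higher in 6 of 6 pairs with 1.19 ± 0.21 (adjusted p = 0.000800). Pax6 and Pax2 were higher by 0.53 ± 0.11 and 0.46 ± 0.16 on the log2 scale, and Pax1, a gene of the vertebral column, was lower in 6 of 6 pairs, at -0.80 ± 0.25. Irx5 ran from 6.11 CPM over a median of 8.96 to 13.0 CPM in the 6 libraries of replicate 1 and from 7.25 over 14.5 to 22.6 CPM in the 6 of replicate 2, higher in 6 of 6 pairs with 0.68 ± 0.14 (adjusted p = 0.00355). Irx3 followed, with 0.44 ± 0.12, as did Six4 with 0.20 ± 0.05, the smallest shift of the 21. In the Dlx family, Dlx6 was higher by 0.62 ± 0.17 and Dlx3, which ran from 1.08 CPM over a median of 4.38 to 7.11 CPM in the 6 libraries of replicate 1 and from 1.27 over 2.54 to 3.26 CPM in the 6 of replicate 2, was lower at -0.67 ± 0.17. No Lhx gene passed.

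**Figure D4:**
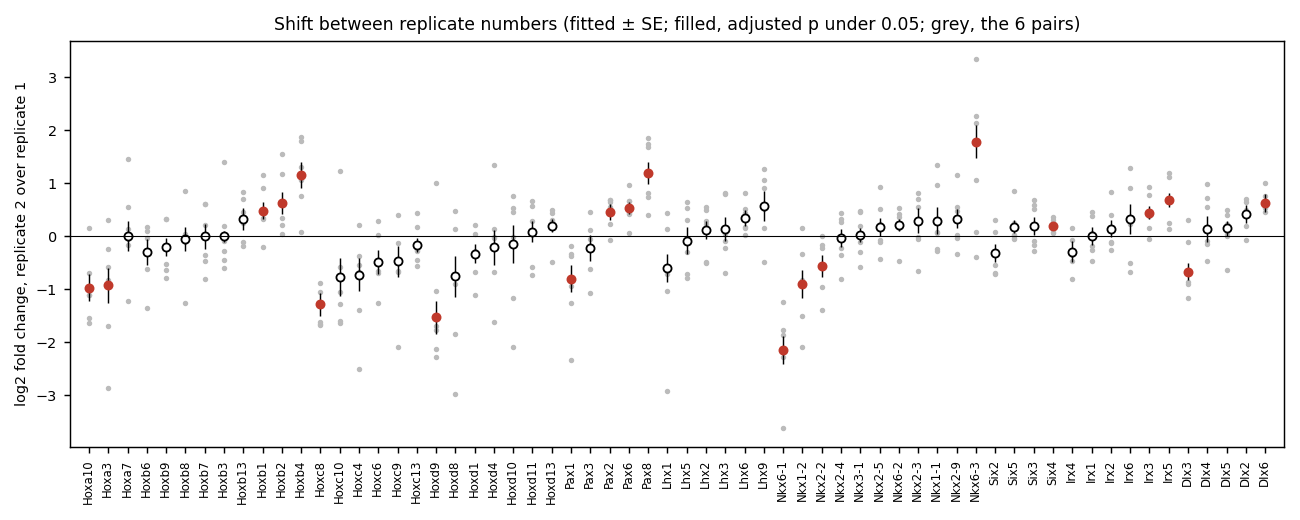
Log2 fold change of replicate 2 over replicate 1 for 62 of the 64 members, ordered by family and size. Circles are fitted values with standard errors, filled where the adjusted p was under 0.05 (20 members), and grey dots are the 6 pairs of libraries. Nkx6-1, Hoxc8 and Pax1 are below 0 and Pax8, Hoxb4 and Irx5 above 0 in all 6 pairs.

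In all 6 pairs, 9 members were higher in replicate 2 (Dlx6, Hoxb2, Hoxb4, Irx5, Lhx6, Pax6, Pax8 and Six4 among them), beside 19.1% of all genes, and 3 lower (Hoxc8, Nkx6-1 and Pax1), beside 19.3%. Genes of other lists were called in the same contrast, beside 42.8% of all genes, 21% higher and 21.8% lower. In particular, 6 of 9 ES cell markers, among them Pou5f1 and Nanog, were called higher in replicate 2, and 5 of 7 mesendoderm markers lower. The fibroblast markers (8 of 10 tested, none at 0 in every library) summed to 31.9 to 94.4 CPM in replicate 1 and 24.1 to 64.2 CPM in replicate 2, with Acta2, Col3a1 and Dcn called lower in replicate 2. In the retinoic acid list 5 of 17 were higher, with Stra8, a target of retinoic acid in germ cells, at 3.23 ± 0.23 on the log2 scale (adjusted p = 3.66e-06), and 1 was lower. Of the 6 antisense and non-coding neighbours, 2 were lower, Dlx4os among them. Of the other lists, 2 of 9 TALE genes were higher and 1 lower, 7 of 33 Polycomb subunits were higher and 7 lower, 8 of 37 other developmental factors were higher and 9 lower, and 1 of 6 neural markers was higher and 2 lower. What part these changes had in the members' shifts was not tested.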

How the data were processed

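RNA-seq of total RNA from 12 samples (2 per line and treatment) was used. Per the labels and the study's methods, the authors aligned paired reads to mm10 with TopHat2 (2.1.0), counted reads per gene with featureCounts (1.5.1) and deposited the raw counts, 1 file per sample. The counting options named no strand. RNA integrity numbers were stated to be above 9.

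Genes with at least 10 counts in at least 6 libraries were tested (15198). edgeR (4.0.16) was fitted with 6 group means, TMM factors from autosomal genes (0.976 to 1.02) and the robust quasi-likelihood test, with Benjamini-Hochberg adjustment over all tested genes and a threshold of 0.05. Replicate numbers were tested as a term added to the groups. CPM are counts scaled to 1000000 in the TMM-scaled autosomal library, and exon lengths are from GENCODE vM21. Standard errors are the fold change divided by the root of the F statistic. On counts simulated for the same genes, the fit recovered 58% of 2-fold and 93% of 4-fold changes for the DOX comparison in FL cells, 38% and 79% between ΔA cells and FL cells, and 80% and 99% between replicate numbers. The 200 changed genes were drawn at random from all 15198, and the 2 comparisons of groups were simulated with no shift between replicate numbers. These shares do not give the sensitivity for the members, nearly all of which lie below the median level of these genes.

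The labels number the replicates 1 and 2 in each group, and the differences between replicates correlated across genes in all 15 pairs of groups (r from 0.375 to 0.763), so that the numbers were taken to pair the samples and a fit with the number as a block is given beside the members' calls and beside the counts of the lists that it changed. That fit is an alternative, since the study's methods name no block. DESeq2 (1.42.0), limma-voom (3.58.1), other filters and leaving out each library were the other alternatives.

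Members and lists were chosen with earlier results of these data known. Values in full are given for the 2 members per family with the highest CPM per kb, for members that passed a comparison (at most 8, by fold change), or, where none did, the 3 with the smallest p and a mean of at least 1 CPM. Members that passed only with the block, or whose 4 libraries of a line lay apart, were named after their values were seen. The values of some members and listed genes are not reported here, and the plots over all members show 62 of 64. Promoter windows came from RefSeq. Intervals of ratios are exact Clopper-Pearson intervals of counting error.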

Additional observations from a re-analysis of the deposited data

How the results depend on the processing

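With the replicate number as a block, members called came to 6 for DOX in FL cells, 8 for DOX in ΔB+C cells, 15 between ΔA cells and FL cells and 11 between ΔB+C cells and ΔA cells, and no other count of members called changed. With the block and without the low-input library (chosen after seeing the data), these came to 5, 1, 17 and 9, with 2 between ΔB+C cells and FL cells. DESeq2 called 2 for DOX in ΔB+C cells, 11 between ΔA cells and FL cells and 2 between ΔB+C cells and ΔA cells. Without a filter on low counts, 1 was called for DOX in ΔB+C cells and 0 between ΔB+C cells and ΔA cells. limma-voom called 0 in the latter, as did a minimum of 1 CPM, which left 35 members and 13 calls between replicate numbers. Pooling both treatments gave 16 between ΔA cells and FL cells and 11 between ΔB+C cells and ΔA cells, and with the block (chosen after seeing the data) 29 and 20, with 3 between ΔB+C cells and FL cells. In the 6 DOX libraries alone (also added), 10 differed between replicate numbers.

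Leaving out 1 library in turn gave 0 to 8 members between ΔA cells and FL cells, 0 to 2 between ΔB+C cells and ΔA cells, 15 to 22 between replicate numbers and 0 to 1 for DOX in ΔB+C cells, where the 1 came without FL DOX replicate 2. It gave 0 in all other comparisons. In these fits the lone sample of a group is assumed to vary like the other groups. The log2 fold change of Nkx6-1 between ΔA cells and FL cells ranged from -2.17 to 0.082 on leaving out 1 library, turning from -1.40 to 0.082 without FL noDOX replicate 1. Over all settings, 180 of 219 member counts stayed within 1.5 times the main count. In most comparisons the main count was 0, and 0 beside 0 was taken as within. This share therefore says little of the comparisons with calls, whose ranges are given above. Of 1329 values of single members, 1111 kept their direction and side of the threshold, 104 passed it, 113 lost it and 1 turned. The causes were not tested. The 6 calls between ΔA cells and FL cells were all shared with DESeq2 and 4 with limma-voom, and of the 21 between replicate numbers 17 were shared with DESeq2 and 21 with limma-voom. Precision was limited by 2 libraries a group and by counts of 1 to 1607 per member and library.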
